A study of Mus musculus with 2 samples.

Results

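The cells described are S100a8 neutrophil precursors, a small group within the sorted progenitors of the mouse fetal liver. A cell was counted in the group when it had at least 20 UMIs (unique molecular identifiers, each marking 1 captured RNA molecule) of S100a8 and S100a9 together and at least 1 UMI of Cebpe, among barcodes that passed a limit of 1000 genes or more and of 20% mitochondrial UMIs or less. The rule found 115 of 7875 cells: 49 of 3458 in WT and 66 of 4417 in IκBα KO. The precursors were therefore chosen by measured values of S100a8, S100a9 and Cebpe, and the levels of these genes in them are a description and not a finding.

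The study asked how loss of IκBα, the inhibitor that holds NF-κB factors in the cytoplasm, alters blood stem and progenitor cells. Livers of E14.5 CD1 embryos, from matings of heterozygous carriers, were depleted of lineage-positive cells and sorted for LSK cells (lineage-negative, SCA1-positive, cKIT-positive). WT embryos carried intact Nfkbia, the gene of IκBα, and KO embryos were homozygous for a germline targeted disruption of it (Nfkbia tm1Bal), so that every tissue of the embryo lacked the gene. Each genotype was 1 droplet-based 3′ library (10x Genomics), made from 2 pooled WT embryos and 3 pooled KO embryos. The labels disagree on the sort: the titles give LT-HSCs and the protocol LSK cells, which is the name used here. The depletion mix for fetal liver held no CD11b antibody, so cells were not removed through that antigen. Which myeloid cells its other antibodies removed was not measured here.

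With 1 library per genotype there was no replicate, no test of a genotype difference and no p-value. Genotype could not be told apart from the embryos pooled, the sex of the cells or the depth of the library. The WT library held 109122324 UMIs in 3840 barcodes and the KO library 100029143 UMIs in 4928, and kept cells had a median of 28065 and 19560 UMIs. Only 7 barcodes occurred in both libraries, and none of them was a precursor. Levels are given as CPM (counts per 1000000, that is UMIs of a gene per 1000000 UMIs of the same cells, summed over the cells). Because a 3′ library yields 1 tag per molecule whatever its length, the levels of different genes can be set side by side. All intervals are at 95% and cover counting error only; the spread between embryos and between libraries is not in them.

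Neutrophils fill their granules in waves. Promyelocytes make the serine proteases and myeloperoxidase of the primary granules, myelocytes then make the antimicrobial proteins of the secondary granules under the factor C/EBPε, and later cells add gelatinases, chemoattractant receptors and the other proteins of tertiary granules and of the mature surface. S100a8 and S100a9 encode the subunits of calprotectin, an abundant protein of the neutrophil cytoplasm, and in mice the stefin A genes, which encode inhibitors of cysteine proteases, are also transcribed at high levels in developing neutrophils.

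The precursors made up 1.42% of kept WT cells (exact Clopper-Pearson interval 1.05 to 1.87) and 1.49% of kept KO cells (1.16 to 1.90). The difference, KO minus WT, was 0.0772 percentage points with an interval of −0.486 to 0.622, so no difference in share was detectable at these numbers of cells. Their median depth was 28540 UMIs and 4721 genes in WT and 22617.5 UMIs and 4086.5 genes in KO, and single cells ranged from 6863 to 163284 and from 9610 to 108932 UMIs. Mitochondrial UMIs made up a median of 1.72% and 1.71%. The precursors held 1.49% of the WT and 1.92% of the KO library's UMIs.

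Expression of the targeted gene was examined as a check of the labels. Nfkbia (ENSMUSG00000021025) is a protein-coding gene on the minus strand of GRCm38 chromosome 12, from 55489410 to 55492647. It gave 63 UMIs in 32 of 49 WT precursors, which is 39.0 CPM, and 1 UMI in 66 KO precursors, which is 0.52 CPM. The log2 KO/WT ratio was −6.21 (interval −11.5 to −3.68), and −4.63 with the KO count set to the floor of 3 UMIs.

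The sum of S100a8 and S100a9 had a median of 213 UMIs per cell in WT (20 to 3156) and 184 in KO (25 to 1987), and Cebpe a median of 9 and 8 UMIs (highest 48 and 31). Only 11 WT and 9 KO precursors lay just inside the threshold, at 20 to 39 UMIs. These cells had 2748 and 2568 CPM of Elane and 902 and 947 CPM of Stfa1. Just outside it, 8 WT and 8 KO cells with Cebpe had 10 to 19 UMIs, with 2066 and 2923 CPM of Elane and 570 and 2597 CPM of Stfa1. In their Elane level the cells on either side of the threshold were thus close, and the rule cut through a continuous range rather than a gap. A further 3 WT cells and 0 KO cells had at least 20 UMIs of the S100 genes without a Cebpe UMI.

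The precursors were set beside 2 other populations of the same libraries. Early granule progenitors were cells outside the group with at least 20 UMIs of Elane and Prtn3 together and fewer than 20 of the S100 genes (198 WT and 174 KO cells). Monocyte and dendritic progenitors were cells with at least 3 UMIs of Irf8 and at least 1 UMI each of Csf1r and Ly86 (101 and 105 cells). Both were defined by the values of a few genes, and comparisons with them are descriptions side by side.

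The calprotectin genes were nearly confined to the precursors, as the rule required. S100a8 stood at 5282 CPM in WT (8541 UMIs) and 4782 CPM in KO (9110 UMIs), and the precursors held 93.1% and 96.5% of all S100a8 UMIs of kept cells. S100a9 stood at 6653 and 6816 CPM. Cebpe, which encodes C/EBPε, stood at 309 and 303 CPM, against 79.8 and 123 CPM in early granule progenitors. Of the other marker genes named for the group, Hp, which encodes the haemoglobin-binding protein haptoglobin, was found in every precursor at 496 and 460 CPM, while Ngp, which encodes the secondary granule protein neutrophilic granule protein, was found in only 3 cells of each library. Ngp held 171 UMIs in WT and 36 in KO, and its level of 106 and 18.9 CPM was set by single cells.

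Promoter sequences are shown for 5 genes that mark successive parts of the granule programme: Elane of the primary granules, Ngp of the secondary granules, Fcnb, and both calprotectin genes. Each is the stretch of 250 bases before the gene's start as RefSeq gives it on GRCm38.p6, written in the direction of transcription. Capitals mark matches, on either strand, to a PU.1-like motif, GAGGAAG (reverse CTTCCTC), and a C/EBP-like motif, TTNNGCAA (reverse TTGCNNAA). PU.1 (gene Spi1) and the C/EBP factors are the main activators of myeloid genes. The Elane promoter (chr10:79886062-79886311, plus strand) held GAGGAAG 85 bases before the start, the Ngp promoter (chr9:110419558-110419807, plus strand) held TTGCCCAA at 138 and TTGGGCAA at 11, the Fcnb promoter (chr2:28084879-28085128, minus strand) held TTTTGCAA at 235 and TTGTGCAA at 123, the S100a9 promoter (chr3:90695722-90695971, minus strand) held TTGCTTAA at 236, and the S100a8 promoter (chr3:90668821-90669070, plus strand) held CTTCCTC at 171.
Elane: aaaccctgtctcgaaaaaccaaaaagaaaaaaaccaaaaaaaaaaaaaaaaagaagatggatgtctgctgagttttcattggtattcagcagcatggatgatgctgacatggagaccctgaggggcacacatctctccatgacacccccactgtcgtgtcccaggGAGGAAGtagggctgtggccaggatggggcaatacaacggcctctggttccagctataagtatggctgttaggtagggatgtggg
Ngp: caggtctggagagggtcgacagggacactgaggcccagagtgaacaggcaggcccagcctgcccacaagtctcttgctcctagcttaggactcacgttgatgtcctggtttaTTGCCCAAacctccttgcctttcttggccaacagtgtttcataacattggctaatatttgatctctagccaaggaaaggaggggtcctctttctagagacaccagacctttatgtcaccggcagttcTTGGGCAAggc
Fcnb: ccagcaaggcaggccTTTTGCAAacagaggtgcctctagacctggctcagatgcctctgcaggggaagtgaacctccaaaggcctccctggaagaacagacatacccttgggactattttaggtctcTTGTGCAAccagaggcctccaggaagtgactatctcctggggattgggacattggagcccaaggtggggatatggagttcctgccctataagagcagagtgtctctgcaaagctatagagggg
S100a9: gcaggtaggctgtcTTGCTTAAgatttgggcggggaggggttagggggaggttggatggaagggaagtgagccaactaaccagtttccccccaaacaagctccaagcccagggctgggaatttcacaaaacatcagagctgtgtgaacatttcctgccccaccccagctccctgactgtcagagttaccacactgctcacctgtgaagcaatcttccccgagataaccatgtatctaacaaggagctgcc
S100a8: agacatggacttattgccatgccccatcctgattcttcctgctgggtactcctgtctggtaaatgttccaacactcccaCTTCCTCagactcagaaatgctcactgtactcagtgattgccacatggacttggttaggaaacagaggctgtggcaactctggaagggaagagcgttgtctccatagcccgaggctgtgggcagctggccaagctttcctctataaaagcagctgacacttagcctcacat

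The motifs were picked after several had been looked at in these promoters, so their counts are a description only. GAGGAAG occurred in 10.6% of all 32851 RefSeq promoters of this length, and in 6 of 8 promoters of the 7 matched primary granule genes (Cd63, Ctsc, Ctsg, Elane, Mpo and Prtn3). It occurred in 3 of 9 secondary granule promoters (Lcn2, Olfm4 and Pglyrp1). TTNNGCAA occurred in 9.56% of all promoters, in 0 of 8 primary granule promoters and in 4 of 9 secondary granule promoters (Lcn2, Ltf, Ngp and Slpi). Among 8 promoters of S100a8, S100a9 and cytosolic myeloid proteins, 3 held it (Anxa1, Fcnb and S100a9). A match of these letters says nothing on whether a factor was bound.

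The summed level of the primary granule genes was higher in these cells than in the other populations. All 8 genes of the list were detected, and together they made up 22811 CPM in WT and 21814 CPM in KO, against 5718 and 7517 CPM in early granule progenitors and 2415 and 2019 CPM in monocyte and dendritic progenitors. Prtn3 (proteinase 3) stood at 7889 and 7470 CPM and Elane (neutrophil elastase) at 3771 and 3707 CPM. Mpo (myeloperoxidase) stood at 4846 and 4894 CPM and Ctsg (cathepsin G) at 2965 and 2883 CPM. Every WT precursor and all but 2 KO precursors held Mpo UMIs, and every precursor of both libraries held Elane UMIs. In erythroid cells, which should lack the gene, 4.09% of WT and 3.38% of KO cells held an Elane UMI, at a median depth of 35328 and 25597.5 UMIs.

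Against early granule progenitors, 102 of 6204 genes (1.64%) were at least 2-fold higher in the precursors of both libraries and 58 (0.935%) at least 2-fold lower. Of the 8 primary granule genes, 6 were past the higher limit and 0 past the lower, with a median log2 ratio of 2.02 in WT and 1.46 in KO, where the median of all genes compared was −0.11 and −0.09. Elane stood at 266 and 395 CPM in the early progenitors, and its log2 ratio was 3.82 in WT and 3.23 in KO. Mpo was already high there, at 2104 and 2750 CPM, and its log2 ratio was 1.20 and 0.83. Elane also took part in choosing the early progenitors, which biases this ratio for Elane and Prtn3, whereas Mpo and Ctsg did not.

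Secondary granule genes were present at a far lower summed level, 1785 CPM in WT and 1697 CPM in KO. In early granule progenitors the sum was 83.9 and 136 CPM, and since these were limited to fewer than 20 S100 UMIs and genes such as Camp, Lcn2 and Olfm4 reached the minimum only through the precursors, no count of genes is read from the contrast. Pglyrp1, which encodes a peptidoglycan recognition protein, stood at 309 and 278 CPM, Olfm4 (olfactomedin 4) at 140 and 153 CPM, and Camp, which encodes the antimicrobial cathelicidin, at 532 and 440 CPM. These genes differed in how they were spread over cells. Camp was detected in 10 WT precursors and 15 KO precursors and Lcn2 (lipocalin 2) in 16 and 29, whereas Slpi, a secreted inhibitor of elastase and cathepsin G, was found in 40 and 59. Lactoferrin, the classical secondary granule protein, was nearly absent: Ltf held 4 UMIs in WT and 11 in KO, all 11 of them in 1 cell. Chil3 held 3 and 1 UMIs and Cd177 2 and 0.

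**Figure D1:**
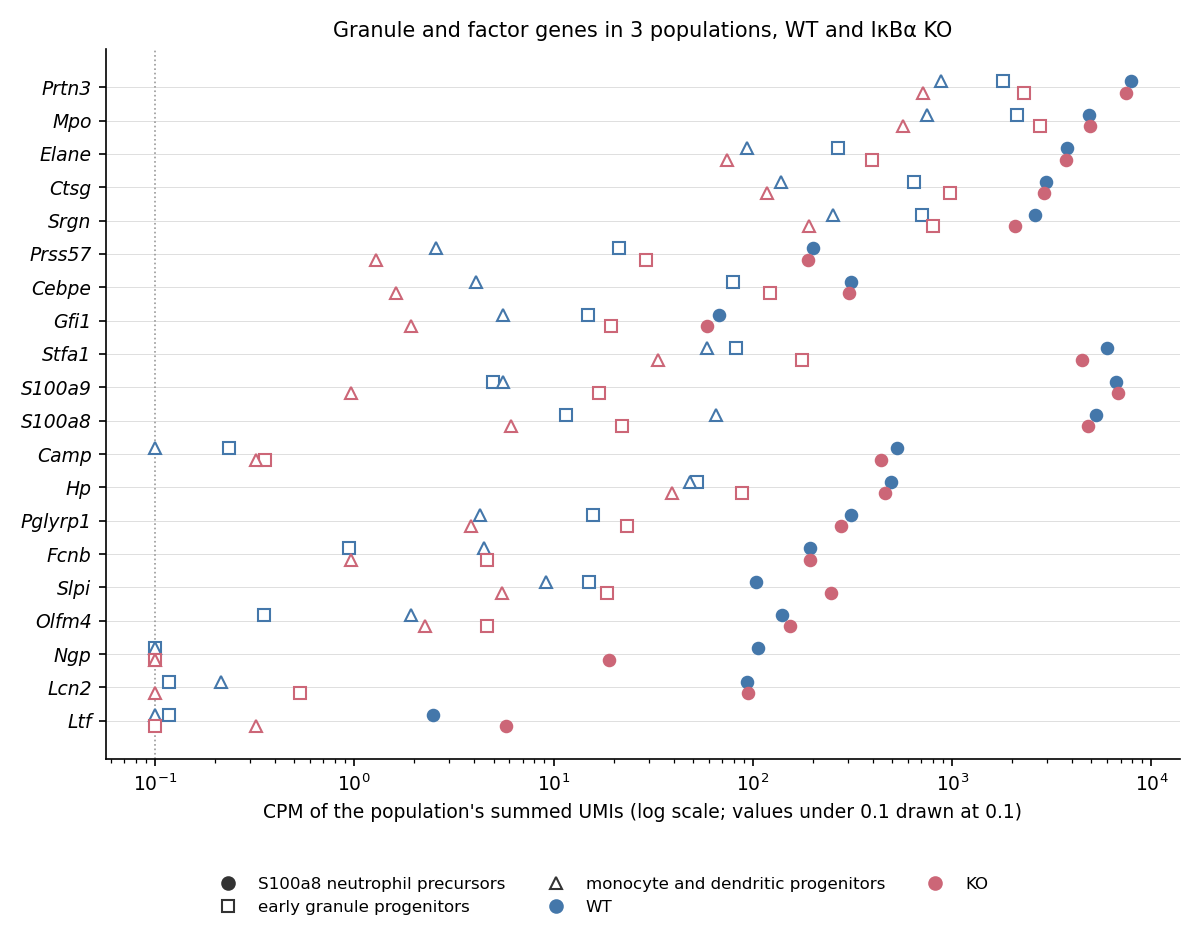
Level of 20 granule, calprotectin and factor genes in 3 populations, in CPM of the population's summed UMIs on a log axis, with WT in blue and KO in red (filled circles for S100a8 neutrophil precursors, open squares for early granule progenitors, open triangles for monocyte and dendritic progenitors; values under 0.1 are drawn at 0.1). In the precursors Prtn3 lies furthest right, at 7889 and 7470 CPM, followed by S100a9, and Ltf furthest left, at 4 and 11 UMIs in all.

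Tertiary granule and late neutrophil genes were close to absent. The 11 genes of this list held 17 UMIs in WT and 18 in KO over all precursors, and 8 and 9 of them were at 0. Cxcr2, the chemokine receptor of mature neutrophils, held 14 and 12 of these UMIs, Mmp9 (gelatinase B) 1 and 0 and Ccl6 2 and 6. Mmp8, Mmp25, Retnlg, Fpr1, Fpr2, Il1b, Padi4 and Asprv1 had none in either library. Ly6g, the surface antigen used to mark neutrophils, had none either. With the floor of 3 UMIs that a count of 0 allows, each of these genes could still have had a level of up to 1.86 CPM (WT) and 1.57 CPM (KO).

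The cells were thus rich in primary granule transcripts and nearly without those of the tertiary list. Secondary granule transcripts lay between, at a far lower sum than the primary ones but above that of early granule progenitors. Of the secondary genes, Hp and Slpi were found in all or most cells, while Ngp, Ltf and most Camp UMIs came from few. The word maturing, used in a description of the group, is left out of its name here.

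Stefin A genes were among the most abundant transcripts of these cells. The 6 genes Stfa1, Stfa2, Stfa2l1, Stfa3, Cstdc4 and Cstdc5 lie in a cluster of near-identical copies, so that counts of single members are uncertain and their sum is given as well. They held 16313 UMIs in WT and 15863 in KO, at a level of 10087 CPM in the former and 8327 CPM in the latter. Every precursor held between 5 and 2323 of these UMIs in WT and between 5 and 1402 in KO. In early granule progenitors the sum was 92.1 and 213 CPM, and in monocyte and dendritic progenitors 65.6 and 39.7 CPM. Stfa1 took the largest share, at 5953 and 4492 CPM, and was found in every precursor, against 26.3% and 36.8% of early granule progenitors and 5.37% and 5.11% of erythroid cells.

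The 7 genes of cytosolic and secreted myeloid proteins summed to 2207 and 2017 CPM, against 629 and 726 CPM in early granule progenitors. Fcnb, which encodes the pattern recognition lectin ficolin B, went from 0.94 and 4.65 CPM in early progenitors to 193 CPM in the precursors of both genotypes. Serpinb1a, an inhibitor of the granule proteases, stood at 783 and 629 CPM, S100a11 at 605 and 564 CPM, Anxa1 (annexin A1) at 315 and 287 CPM and Lyz2 (lysozyme) at 308 and 334 CPM. Ms4a3, a gene of granulocyte and monocyte progenitors, stood at 1242 and 1158 CPM, against 153 and 257 CPM in early granule progenitors and 25.2 and 12.6 CPM in monocyte and dendritic progenitors.

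Among 10 myeloid transcription factors compared with early granule progenitors, 3 were past the higher limit and 0 past the lower: Cebpe, which was part of the rule, Gfi1 and Cebpd. The share of all genes compared was 1.64% past the higher and 0.935% past the lower limit. Gfi1, a repressor needed for neutrophil differentiation, stood at 67.4 and 58.8 CPM against 14.9 and 19.5 CPM, and Cebpd at 116 and 115 CPM against 38.7 and 43.8 CPM. Cebpa, the factor that starts the granulocyte programme, was lower in the precursors, at 15.5 and 12.1 CPM against 29.4 and 35.4 CPM, and so was Runx1, at 50.7 and 48.8 CPM against 107 and 88.5 CPM, but neither was 2-fold lower in both libraries. Spi1 stood at 274 and 257 CPM, Myb at 222 and 209 CPM and Irf8, the factor of monocyte and dendritic cells, at 42.1 and 34.1 CPM.

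The phagocyte NADPH oxidase, which makes superoxide in neutrophils, was transcribed unevenly. All 6 genes were detected, and 3 were past the higher limit against early granule progenitors, where 1.64% of all 6204 genes were. Cyba, which encodes the small membrane subunit, stood at 638 and 684 CPM and Rac2, the regulatory GTPase, at 587 and 528 CPM, while Cybb, which encodes the catalytic membrane subunit, stood at only 30.3 and 37.3 CPM. Of the cytosolic subunits, Ncf4 stood at 151 and 171 CPM and Ncf1 at 86.6 and 66.7 CPM.

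Of 8 surface receptor genes compared with early granule progenitors, 2 were past the higher limit, against 1.64% of all genes compared. Ly6c2, the Ly6C antigen of monocytes and immature granulocytes, stood at 158 and 94.0 CPM against 9.33 and 14.1 CPM, and Csf2ra, the receptor chain for GM-CSF, at 97.1 and 90.3 CPM against 28.0 and 30.6 CPM. Csf3r, the receptor of the granulocyte growth factor G-CSF, stood at 35.2 and 42.0 CPM and Fcgr3, an Fc receptor, at 129 and 137 CPM. Itgam, which encodes CD11b, stood at 12.4 and 15.8 CPM. The 11 stem and progenitor genes summed to 250.4 and 197 CPM, against 622 and 557 CPM in early granule progenitors. Cd34 stood at 63.7 and 63.5 CPM against 221 and 217 CPM, and Sox4 at 58.8 and 38.3 CPM against 189 and 162 CPM. Both surface genes of the sort were low: Kit stood at 55.7 and 33.1 CPM, and Ly6a, which encodes SCA1, held 12 and 8 UMIs over all precursors.

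Outside the lists, the genes with the largest ratio below early granule progenitors were Cpa3, Cd27, Cox4i2, Ifi203, Hmga2, Ccnd1, Ikzf2, Tespa1, Satb1 and Mndal. Cpa3, the carboxypeptidase of mast cells and basophil precursors, stood at 4.33 and 4.72 CPM against 92.4 and 66.8 CPM. Hmga2, a chromatin protein of fetal stem cells, stood at 74.8 and 70.9 CPM against 338 and 275 CPM, and Ccnd1 (cyclin D1) at 18.6 and 18.9 CPM against 76.0 and 72.9 CPM. The other direction was led by Camp, Cstdc4, Lcn2, Cstdc5, Wfdc21, Fcnb, Olfm4, Stfa1, Pglyrp1 and Clec4a2.

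Against monocyte and dendritic progenitors, 114 of 5294 genes (2.15%) were at least 2-fold higher in the precursors of both libraries and 242 (4.57%) at least 2-fold lower. The primary granule genes summed to 22811 and 21814 CPM against 2415 and 2019 CPM. One of them, Ctsc, which encodes the protease that activates the others, was past the lower limit at 51.3 and 63.5 CPM. Prss57, another primary granule protease, reached the minimum only through the precursors, so no count is read from this list. It stood at 201 and 189 CPM against 2.57 and 1.29 CPM. Genes of the monocyte, dendritic and macrophage lists passed the minimum of UMIs mainly through the population chosen for such genes, so no count is read from them. The largest ratios below were those of Hmox1, C1qc, Marco, C1qb, Lpl, Ctss, Pf4, Fcna, C1qa and Ccl24. The comparison population itself held 1095 (WT) and 2036 (KO) CPM of the macrophage list, against 962 and 1147 CPM of the monocyte and dendritic list. Its megakaryocyte genes summed to 290 and 1527 CPM. The contrast is thus in part one with macrophage RNA and, in KO, with megakaryocyte RNA. Of 6 oxidase genes 0 were past the higher limit and 1 past the lower, and the summed level of the list was 1585 and 1573 CPM in the precursors against 1294 and 1468 CPM.

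RNA of other cell types was counted in the precursors over whole marker lists. The 10 erythroid genes held 10229 UMIs in WT and 23292 in KO, with every gene detected. Most of it lay in few cells: 2 WT and 9 KO precursors had at least 100 haemoglobin UMIs and held 92.5% and 95.2% of all haemoglobin UMIs. These cells also held at least 762 (WT) and 146 (KO) UMIs of Elane and Prtn3, with a median depth of 134063 and 51560 UMIs. The doublet caller Scrublet marked 2 WT and 9 KO precursors (4.08% and 13.6%), and 1 and 5 of these were among the cells with haemoglobin. In the KO library, 8 precursors (12.1%) carried both Xist and chromosome Y UMIs, against 6.36% of all kept KO cells. At least 1 of the 3 signs was found in 3 WT and 17 KO precursors.

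Of the other lists, several rested on single cells. The 8 macrophage genes held 27 and 101 UMIs, 52 of them in 1 KO cell. The 9 eosinophil, basophil and mast cell genes held 29 and 107 UMIs, 91 of them in 1 KO cell, in which Prg2 had 72. The 6 endothelial genes held 1 and 49 UMIs, 46 of them in 1 KO cell, the 8 lymphoid genes 16 and 19, the 6 megakaryocyte genes 44 and 78 and the 7 hepatocyte genes 60 and 104. The hepatocyte UMIs were spread over 32 WT and 50 KO cells. The monocyte and dendritic list held 247 and 287 UMIs in 35 of the 49 and 38 of the 66 cells, with 3 and 1 of its 10 genes at 0, and its summed level of 153 and 151 CPM was close to the 168 and 185 CPM of early granule progenitors.

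Within the group, the S100 level spanned a wide range, and other genes were ordered along it. The precursors of each library were cut into 4 bins of near-equal size by S100a8 and S100a9 UMIs per 10000 UMIs (13, 12, 12 and 12 WT cells and 17, 17, 16 and 16 KO cells). The median ran from 7.43 in the lowest to 314 in the highest bin in WT and from 13.5 to 376 in KO. Cells of the highest bin were shallower, with a median of 16925 and 16154 UMIs against 33647 and 33779 in the lowest, and depth and the S100 level could not be told apart as a source of the order.

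The summed primary granule level went from 19266 through 22499 and 25739 to 28884 CPM in WT and from 15515 through 21271 and 27143 to 31557 CPM in KO. The secondary granule level spanned a wider range, from 473 through 744 and 1314 to 8469 CPM in WT and from 443 through 887 and 1539 to 6791 CPM in KO. The same order thus held in both libraries, with the step into the highest bin the largest for the secondary list. Single genes differed in how far they followed. Elane went from 2746 to 6162 CPM in WT and from 2096 to 5934 CPM in KO. Mpo changed less, from 4657 to 5418 CPM in WT and from 4067 to 5831 CPM in KO. Ctsg went down in WT, from 2924 to 2195 CPM, and up in KO, from 2176 to 3681 CPM. Slpi of the secondary list stood at 70.0 and 74.4 CPM in the lowest and highest WT bin, and at 105 and 523 CPM in KO. Pglyrp1 went from 101 to 1237 and from 78.7 to 990 CPM, and Fcnb from 25.6 to 860 and from 21.9 to 769 CPM. Stfa1 went from 898 to 21374 CPM in WT and from 1007 to 16866 CPM in KO.

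Cebpe went up along the bins from 215 to 470 CPM in WT and from 246 to 479 CPM in KO, and Cebpd from 85.4 to 233 and from 59.7 to 221 CPM. The oxidase list went from 1226 to 2995 CPM and from 1155 to 2695 CPM. Across single cells, the Spearman correlation of the oxidase list with the S100 level was 0.71 in WT (49 cells) and 0.64 in KO (66 cells). These cells share a library and each value is a share of the same cell's UMIs, so the correlations are descriptions.

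Other lists ran the opposite way. Ribosome biogenesis genes, which serve growing cells, went from 7198 to 3720 CPM in WT and from 8726 to 4314 CPM in KO between the lowest and highest bin, with a Spearman correlation of −0.55 and −0.56 over the same cells. Npm1 (nucleophosmin) alone went from 3719 to 1842 CPM and from 4509 to 2356 CPM. The stem and progenitor list went from 302 to 163 CPM and from 201 to 66.3 CPM, and Cd34 from 88.8 to 9.30 and from 90.3 to 22.1 CPM. The G2M list changed less, from 9603 to 7464 CPM and from 9949 to 8492 CPM, and the S phase list had no shared direction, at 3014 and 3632 CPM in WT and 3505 and 3364 CPM in KO. Of the precursors with at least 100 haemoglobin UMIs, 0 in either library lay in the highest bin.

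**Figure D2:**
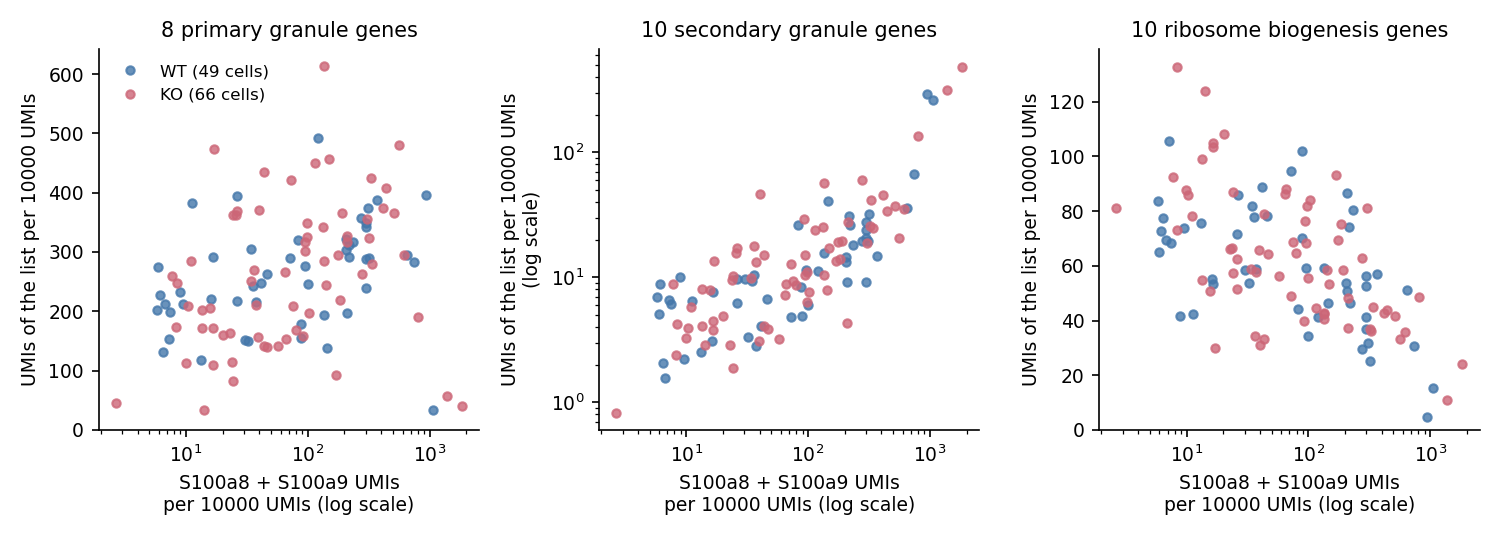
UMIs of 8 primary granule, 10 secondary granule (log axis) and 10 ribosome biogenesis genes per 10000 UMIs of each precursor, against its S100a8 and S100a9 UMIs per 10000 UMIs (log axis), with 49 WT cells in blue and 66 KO cells in red. Both genotypes overlap throughout, the secondary granule genes climb and the ribosome biogenesis genes decline with the S100 level, and several cells of the highest S100 level have few primary granule UMIs.

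Few precursors held Camp in quantity. At least 20 Camp UMIs were found in 2 of 49 WT cells (4.08%, exact interval 0.498 to 14.0) and 4 of 66 KO cells (6.06%, 1.68 to 14.8), and these held 97.8% and 94.9% of the precursors' Camp UMIs. None of them was a Scrublet call. The WT cell with the most had 498 Camp, 112 Lcn2 and 31 Ngp UMIs beside only 11 Elane and 2 Mpo UMIs of 29741 in all, and the other had 343 Camp and 139 Ngp UMIs with 155 Elane and 301 Mpo. In KO, the cells had 342, 285, 126 and 43 Camp UMIs, with 16, 5, 63 and 94 Elane and 0, 0, 43 and 59 Mpo UMIs. Both libraries therefore held cells rich in Camp with hardly any Mpo as well as cells with both.

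Their sum of S100a8 and S100a9 was 3156 and 2018 UMIs in WT and 1769, 1987, 1269 and 461 UMIs in KO. Together they had fewer ribosome biogenesis UMIs than the other precursors, 10.9 against 67.3 per 10000 UMIs in WT and 39.0 against 70.6 in KO. Single cells stood at 15.5 and 4.65 in WT and at 23.9, 11.1, 48.7 and 62.8 in KO. The primary granule UMIs of these cells differed from cell to cell, at 33.0 and 396 per 10000 UMIs in WT and 39.5, 57.5, 190 and 263 in KO. The other precursors together had 230 and 220. G2M UMIs of the pooled cells stood at 85.8 against 88.2 per 10000 UMIs in WT and 66.3 against 95.1 in KO. They too differed from cell to cell, at 126 and 30.7 in WT and 51.0, 119, 54.4 and 40.4 in KO. Every one of the 6 held Top2a UMIs, 19 and 2 in WT and 4, 10, 2 and 1 in KO.

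Transcripts of proliferation were found in most precursors. After each cell was thinned to 8000 UMIs, 83.0% of 47 WT precursors (interval 69.2 to 92.4; 2 shallower cells were left out) and 89.4% of 66 KO precursors (79.4 to 95.6) held an Mki67 or Top2a UMI, against 93.9% and 97.0% without thinning. The thinned share was 89.9% and 92.0% in early granule progenitors and 94.5% and 96.5% in erythroid cells. The thinned cells had a median of 36.3 and 30.0 S phase UMIs per 10000 UMIs, against 55.0 and 56.3 in erythroid cells, and 86.3 and 91.9 G2M UMIs, against 102.5 in erythroid cells of both libraries. Against early granule progenitors, 0 of 40 S phase genes and 0 of 52 G2M genes were past 2-fold in either direction in both libraries. Of all genes compared, 1.64% were past the higher and 0.935% past the lower limit, so counts of 0 are near the share of all genes.

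Between KO and WT precursors, levels were close for most genes. Of 3977 genes with at least 100 UMIs, 11 (0.277%) were at least 2-fold higher in KO and 7 (0.176%) at least 2-fold lower, and the median log2 KO/WT of all genes was 0.02. Of the 8 primary granule genes, 0 passed the limit in either direction and their median was −0.03. With so few of all genes past the limit, a count of 0 here and in the lists below is near the share of all genes. Mpo had a log2 KO/WT of 0.01, Elane of −0.02, Ctsg of −0.04 and Prtn3 of −0.08. Srgn, the proteoglycan that packs granule proteins, was lowest at −0.34 (−0.40 to −0.27), with 2607 CPM in WT and 2065 CPM in KO.

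Calprotectin was likewise close, with a log2 KO/WT of −0.14 (−0.19 to −0.10) for S100a8 and 0.03 for S100a9. The sum of the stefin A genes was lower in KO by less than 2-fold, at −0.28 (−0.31 to −0.25). Of the cytosolic proteins 0 of 5 were past the limit (median −0.10), of the transcription factors 0 of 9 (median −0.08) and of the oxidase genes 0 of 6 (median −0.00). Cebpe had −0.03 (−0.20 to 0.15). Surface receptors had 0 of 6 past the limit (median 0.07), with Ly6c2 lowest at −0.75 (−1.04 to −0.47). Of 4 stem and progenitor genes 0 passed (median −0.45).

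NF-κB genes were too low in these cells for most comparisons. Of 23 factors and targets, 3 reached 100 UMIs besides the targeted gene, which did not: Nfkbib, which encodes the related inhibitor IκBβ, had a log2 KO/WT of 0.14, Nfkb1 of 0.21 and Sod2, a mitochondrial dismutase, of 0.04. Rela held 35 UMIs in WT and 40 in KO and Rel 28 and 31. The other genes of the list could not be compared at this depth. Of 4 immediate early genes 0 passed the limit (median −0.13), and the same held for 32 S phase genes (median 0.03), 43 G2M genes (median 0.07), 9 ribosome biogenesis genes (median 0.05) and 11 glycolysis genes (median 0.00).

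The secondary granule list was the only granule list with genes past the limit, 1 in each direction (median of 7 genes −0.11). Ngp was lowest at −2.48 (−3.05 to −1.96), but its UMIs came from 3 cells in each library, 139 and 31 of the 171 WT UMIs from the same pair of Camp-rich cells. Without the cell with the most Ngp UMIs in each library the value was −2.24. Camp and Lcn2 also turned on single cells: Camp had −0.27, and 0.20 without the top cell of each library, and Lcn2 had 0.02, and 1.32 without it. No direction can be read for these 3 genes.

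Slpi was spread over most cells and was past the limit upward in KO. It held 167 UMIs in 40 of 49 WT cells and 468 UMIs in 59 of 66 KO cells, at 103 and 246 CPM, with a median of 3 and 4.5 and a maximum of 24 and 50 UMIs per cell, and the single cells of both libraries overlapped. Its log2 KO/WT was 1.25 (0.99 to 1.51), and 1.27 without the top cell of each library. Slpi (ENSMUSG00000017002) lies on GRCm38 chromosome 2, 164354070 to 164389095, minus strand, and is protein-coding. In early granule progenitors it stood at 15.1 and 18.6 CPM, where its log2 ratio was 0.30 (−0.09 to 0.68), and in all remaining cells the ratio was −0.20. It was detected in 1.36% and 0.760% of erythroid cells. Along the S100 bins the log2 KO/WT was 0.58 (0.01 to 1.17), 1.05 (0.61 to 1.51), 0.91 (0.42 to 1.43) and 2.81 (2.06 to 3.66). The level was 70.0, 120, 158 and 74.4 CPM in WT and 105, 249, 298 and 523 CPM in KO. In WT it was thus lower in the highest bin than in the 2 below it, on only 16 UMIs in that bin. Among KO cells it stood at 267 CPM in the 39 cells with Xist and without chromosome Y UMIs and at 330 CPM in the 17 with chromosome Y UMIs and without Xist.

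Of the 11 genes higher in KO, 4 belonged to the erythroid list, among them Car2, a carbonic anhydrase, and the globin genes Hba-a2 and Hbb-bs. Slc4a1 and Ermap, outside the list, encode proteins of the red cell membrane. Hbb-bs held 4764 UMIs (WT) and 12102 UMIs (KO), at 2946 and 6353 CPM, and Hba-a2 stood at 496 and 1219 CPM. Without the 2 WT and 9 KO precursors of at least 100 haemoglobin UMIs, only Gm11361, Rab35 and Slpi stayed past the limit, at a log2 KO/WT of 1.69, 1.97 and 1.39, and the other 8 lay between 0.20 and 0.94. The minimum of 100 UMIs was not applied again to these 11 genes, and Rab35, for one, fell under it, at 13 and 53 UMIs. The cells left out were also the deeper ones and overlapped with the Scrublet calls, and the part of erythroid RNA alone was not tested. Rab35, a small GTPase of endosome traffic, rested on 25 UMIs from 12 cells in WT and 78 UMIs from 41 cells in KO, and Gm11361 on 28 and 93 UMIs. In early granule progenitors 0 of the 11 genes were past the limit, and 10 had the same sign.

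The 7 genes lower in KO were Ngp, Card9, Hist1h3c, Hist1h2ap, AI506816, Hist1h4d and Dusp2, and all of them stayed past the limit without the cells rich in haemoglobin and without the Scrublet calls. Card9, an adaptor of antifungal signalling that acts upstream of NF-κB (chromosome 2, 26352176 to 26360918, minus strand), held 75 UMIs in 36 of 49 WT cells and 32 UMIs in 24 of 66 KO cells, at 46.4 and 16.8 CPM. Its log2 KO/WT was −1.47 (−2.11 to −0.85) in the precursors and −0.22 in early granule progenitors. Along the S100 bins it was −2.45 (−4.01 to −1.15), −1.34 (−2.58 to −0.20), −0.62 (−1.96 to 0.69) and −1.34 (−3.04 to 0.19), on 6 to 28 UMIs per bin and library, and the intervals of the upper 2 bins held 0. In KO, Card9 stood at 10.3 CPM (11 UMIs) in the 39 cells with Xist and without chromosome Y UMIs. In the 17 KO cells with chromosome Y UMIs and without Xist it stood at 33.4 CPM (14 UMIs). In WT, 0 precursors carried chromosome Y UMIs, and the part of sex was not tested.

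Histone genes made up 3 of the 7. Hist1h2ap held 1363 UMIs in 48 of 49 WT cells and 605 UMIs in 64 of 66 KO cells, at 843 and 318 CPM, with a log2 KO/WT of −1.41 (−1.55 to −1.27). It was lower by a like ratio in early granule progenitors, at −1.06, and in all remaining cells, at −1.02, so that a lower level was also measured outside the precursors. AI506816 (124 and 57 UMIs, −1.36) had −1.05 in early granule progenitors. Hist1h3c (81 and 35 UMIs) had −1.45 and Hist1h4d (103 and 57 UMIs) −1.09, against −0.03 and −0.27 in early granule progenitors. Dusp2, a phosphatase of MAP kinases, held 79 and 44 UMIs (−1.08, against −0.40). The next in order, Gda, Hmga1 and Stmn1, had −0.96, −0.91 and −0.90 and did not pass. Stmn1, a regulator of microtubules, had −1.15 in early granule progenitors and −1.05 in all remaining cells.

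**Figure D3:**
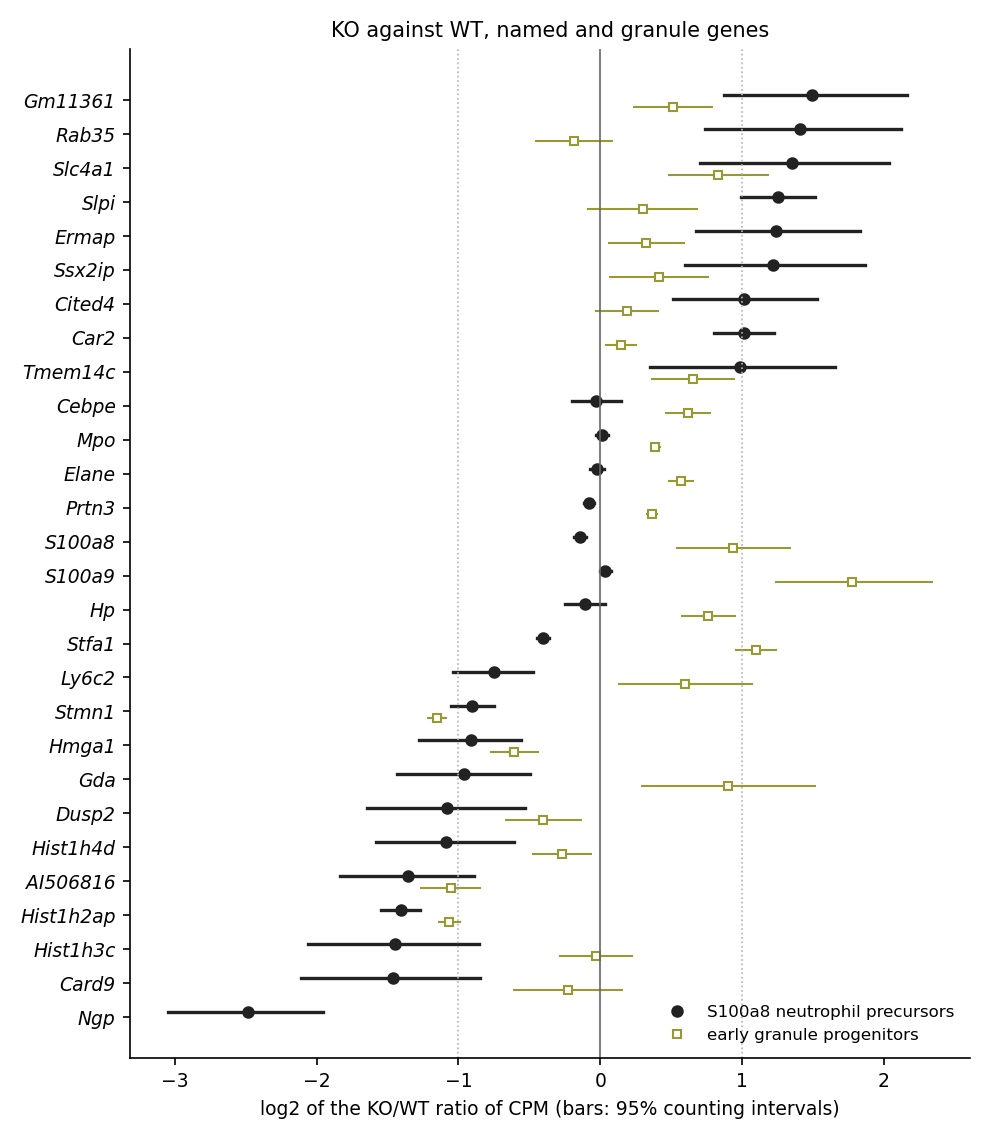
Log2 KO/WT ratio of CPM with 95% counting intervals in the precursors (black) and in early granule progenitors (open squares), for 9 of the 10 highest and the 10 lowest genes in the precursors (haemoglobin genes left out) and 9 granule and marker genes. Dotted lines mark 2-fold; the granule genes of the precursors lie near 0, while in the early progenitors Elane, Mpo, Cebpe and Stfa1 lie to the right.

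The KO/WT ratios of the precursors differed in size from those of the early granule progenitors for granule genes. In early progenitors Elane had a log2 KO/WT of 0.57, Mpo of 0.39, Prtn3 of 0.36, Stfa1 of 1.10 and S100a9 of 1.78, against −0.02, 0.01, −0.08, −0.41 and 0.03 in the precursors. The early progenitors were fewer in KO (3.94% of kept cells) than in WT (5.73%) and were cut from a continuous range by the same S100 threshold. They were also chosen by at least 20 UMIs of Elane and Prtn3 together, so Elane, Prtn3 and S100a9 took part in the choice. A fixed count asks for a higher level in a shallower cell, and their median depth was 36083.5 UMIs in WT and 26087 in KO. The part of these cuts and of depth in the ratios and in the share was not tested.

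**Figure D4:**
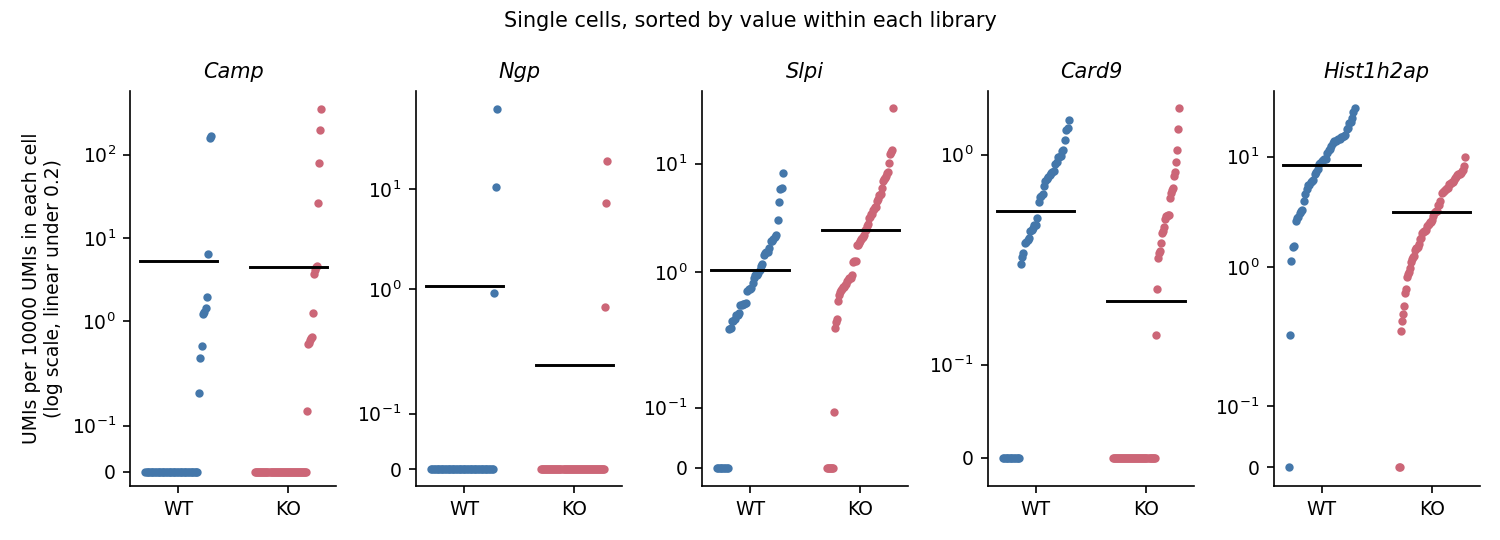
UMIs per 10000 UMIs in each precursor for Camp, Ngp, Slpi, Card9 and Hist1h2ap, sorted within each library (log axis, linear under 0.2), with the level of the summed cells as a black bar. Camp and Ngp come from few cells, while Slpi and Hist1h2ap are spread over most cells and the libraries overlap.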

How the data were processed

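Lineage-depleted E14.5 fetal liver LSK cells of 1 WT and 1 IκBα KO pool were profiled by 3′ droplet sequencing. Per the labels, the authors ran Cell Ranger 6.0.0 against mm10 (GRCm38). They deposited UMI counts for each gene in each called barcode, without normalization. The tables listed 32285 genes. Gene positions came from GENCODE vM21, in which 32235 of the IDs were found, since the annotation release was not given in the sources used here. Promoters came from RefSeq (GRCm38.p6).

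Cells with under 1000 genes or over 20% mitochondrial UMIs were left out (382 WT and 511 KO barcodes). The UMIs of a population's cells were added up and scaled to CPM. Log2 KO/WT ratios have exact conditional (Clopper-Pearson) intervals and levels exact Poisson intervals, at 95%. Genes with at least 100 UMIs in the precursors of both libraries together were compared, and a gene was counted as past the limit at 2-fold. Against another population the limit had to be passed in both libraries, with at least 100 UMIs in each. All values are ratios between single libraries, and with 1 library per genotype no test was run. Scrublet (scanpy 1.11.5, expected rate 5%) marked doublets in each library, which were kept in the main setting. The scripts were tested on simulated data. Python 3.11.15, numpy 2.4.6, scipy 1.17.1, pandas 2.3.3 and matplotlib 3.10.9 were used.

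The members of the group and all gene lists were chosen with earlier results of these data known. The named genes were the markers, the listed granule, factor, oxidase and receptor genes, Nfkbia, the 15 genes of highest level, and the 10 genes with the highest and the 10 with the lowest ratio in each comparison, without sex-linked, haemoglobin, mitochondrial and ribosomal protein genes for KO against WT; the haemoglobin and stefin A genes were named after their values were seen. Alternatives covered the S100 and Cebpe thresholds, cell filters, doublets, thinning, scaling, the gene minimum and cells with Xist and without chromosome Y UMIs. Leaving out cells with haemoglobin UMIs, with both sex signals, or the top cell of a gene was added after the data had been seen. Some items withheld from the text are not reported here.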

Additional observations from a re-analysis of the deposited data

How the results depend on the processing

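No paired analysis was possible because WT and KO were 1 library each. The share difference stayed between −0.146 and 0.280 percentage points over 12 alternatives. The 11 genes 2-fold higher in KO became 5 with the S100 threshold at 10 UMIs, 3 at 40 UMIs, 2 without Scrublet calls, 6 with WT cells thinned by the depth ratio, 7 with every cell thinned to 8000 UMIs, 22 with the mean of per-cell CPM, 45 and 4 with a gene minimum of 50 and 200 UMIs, 5 with cells carrying Xist and no chromosome Y UMIs, 3 without cells of 100 or more haemoglobin UMIs and 3 without cells carrying both sex signals. The 7 lower genes became 3 at 40 S100 UMIs, 4 with thinned WT cells, 1 at 8000 UMIs, 16 with per-cell means, and 20 and 2 with a minimum of 50 and 200 UMIs. The minimum of UMIs was applied again in each of these settings, and fewer genes were compared at 8000 UMIs (819) and at 200 UMIs (2315). The 58 genes lower than in early granule progenitors became 28 with those progenitors set at 40 UMIs of Elane and Prtn3.

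List medians near 0 crossed it. The primary granule median of −0.03 became 0.10 at 10 S100 UMIs, 0.061 without the Cebpe condition, 0.16 without Scrublet calls, 0.16 at 8000 UMIs, 0.033 with per-cell means, 0.040 without haemoglobin-rich cells and 0.10 without cells of both sex signals. The secondary granule median of −0.11 became, in the matching settings, 0.13 (10 S100 UMIs), 0.16 (Scrublet), 0.32 (8000 UMIs), 0.10 (per-cell means), 0.19 (Xist only) and 0.090 (both sex signals). The cytosolic median of −0.10 became 0.062, 0.090, 0.090, 0.22 and 0.077 at 10 S100 UMIs, without Scrublet calls, at 8000 UMIs, with Xist only and without cells of both sex signals. The ribosome biogenesis median of 0.05 became −0.059 and −0.050 at 10 and 40 S100 UMIs, and the glycolysis median of 0.00 became 0.15 without haemoglobin-rich cells. The cause of these moves was not tested. Over 16 alternatives each, Slpi stayed between 1.08 and 1.70, Card9 between −2.10 and −1.20 and Hist1h2ap between −1.62 and −1.28 in log2 KO/WT. Depth limited genes under 100 UMIs, the NF-κB list above all.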

Other observations

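Histone transcripts were looked at together after their values had been seen. Of 12 Hist genes that could be compared, all 12 were lower in KO than in WT precursors, 3 of them past 2-fold, with a median log2 KO/WT of −0.74 (range −1.45 to −0.16), where the median of all genes compared was 0.02. The same 12 genes had a median of −0.16 in early granule progenitors (11 lower), −0.10 in monocyte and dendritic progenitors (7 lower) and −0.20 in erythroid cells (11 lower). The S phase list, which holds no Hist gene, had a median of 0.03 in the same precursors.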
